A study of Mus musculus with 8 samples.

Results

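MHC class I molecules are made of a heavy chain and beta-2 microglobulin, and display peptides from inside the cell to CD8+ T cells and to receptors of NK cells. The peptides are cut by the proteasome, whose constitutive catalytic subunits are exchanged for the inducible subunits of the immunoproteasome in cells of the immune system and after interferon, and they are carried into the endoplasmic reticulum by the TAP transporter. The following 10 genes of this route, of 21755 genes named in the count tables, were chosen by name and followed in wound leukocytes: the heavy chains H2-K1, H2-D1, H2-Q7, H2-Q10 and H2-T23, the light chain B2m, the transporter subunits Tap1 and Tap2, and the immunoproteasome subunits Psmb8 and Psmb9. H2-K1 and H2-D1 are the classical heavy chains of this strain, H2-Q7 encodes a non-classical chain of the Qa-2 group, H2-T23 encodes Qa-1, which is read by the NKG2A receptor on NK cells, and H2-Q10 encodes a chain known for being secreted from the liver.

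Cells positive for CD45, the antigen of leukocytes, were taken from full-thickness wounds on the back of male C57BL/6J mice on days 1, 3, 5 and 7. Mice of the diabetic arm had received streptozotocin at 120 mg/kg when they were 4 weeks old, an agent that destroys the insulin-producing cells of the pancreas, and mice of the control arm were wounded without diabetes. Each of the 8 libraries held the pooled wounds of several mice, with 1 library per arm and day. Differences between 2 libraries of a day therefore had no replicate, and tests used the 4 libraries of each arm together.

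The tables held 19236522 to 33842509 UMIs each, and after filtering 3266 to 5436 cells were kept per library with a median of 2575 to 8234 UMIs per cell. The control library of day 5 stood apart, since 28.6% of its barcodes were removed against at most 10.8% elsewhere and only 7.8% of its cells were neutrophil-like. Levels are given as CPM, the UMIs of a gene per 1000000 UMIs of the library or class, and are compared for 1 gene across cells or libraries and not between genes. Classes were named from marker genes, and the neutrophil-like cells (13710 in all) were led by Csf3r, at a median of 715 CPM against at most 72 in any other class tested. Monocyte-like (4886), macrophage-like (6069), dendritic-like (2920), T cell-like (2464) and NK cell-like cells (528) followed, and the macrophage-like cells had Mrc1, the dendritic-like cells Cd209a, the T cell-like cells Cd3e and the NK cell-like cells Ncr1 at their highest. Cells resembling fibroblasts (50), mast cells (148) and osteoclasts (414), and 3969 cells of an unnamed cluster, were not tested. Ptprc, which encodes CD45, was found at 532 to 922 CPM in the libraries, and at a median of 554 or more in each of the 6 classes described.

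All members but B2m lie on chromosome 17 in the mouse MHC (GRCm38, GENCODE M21). H2-K1 lies at chr17:33996017-34000347 on the reverse strand, followed by a compact group of Psmb9 (chr17:34181987-34187764, reverse strand), Tap1 (chr17:34187553-34197225), Psmb8 (chr17:34197721-34201454) and Tap2 (chr17:34203527-34216321). H2-D1 (chr17:35262730-35267499), H2-Q7 (chr17:35439155-35443773), H2-Q10 (chr17:35470089-35474563) and H2-T23 (chr17:36029773-36032855, reverse strand) follow, and B2m lies apart at chr2:122147686-122153083. Tap1 and Psmb9 are transcribed away from each other from RefSeq starts 226 bases apart, so that 275 of the 300 bases of their promoter windows are the same. The heavy chains are near copies in their coding sequence, with 88.6% identity between H2-K1 and H2-D1, 84.5% between H2-Q7 and H2-Q10, 78.2% between H2-K1 and H2-Q10 and 74.2% between H2-Q10 and H2-T23. In stretches of 100 bases drawn from the last 500 bases of their transcripts, where 3′ counting reads fall, H2-K1, H2-D1 and H2-Q10 shared none with another gene, whereas H2-Q7 shared 2.90% with H2-Q5 and H2-T23 shared 9.73% with Rab33b and Hook2, so that the values of these 2 genes are less certain. How the authors' counting treated reads that match several genes is not given in the sources used here.

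Promoter windows (250 bases before to 50 after the start) of 9 members were in the RefSeq table of GRCm38.p6, all but that of Tap2. The stretches that carry the interferon and NF-kB type motifs of class I genes are shown for 3 heavy chains that differed in cell type, 5′ to 3′ on the strand of the gene. Capitals mark the NF-kB type motif (GGG, then CC after 5 other bases, on either strand), TTTCNNTTC (GAANNGAAA on the other strand, of interferon response type) and TGACG (the core of a cyclic AMP response type site).
H2-K1, chr17:34000377-34000482, reverse strand: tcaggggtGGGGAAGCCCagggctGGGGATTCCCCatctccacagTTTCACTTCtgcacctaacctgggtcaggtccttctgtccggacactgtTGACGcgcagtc
H2-Q7, chr17:35438997-35439102, forward strand: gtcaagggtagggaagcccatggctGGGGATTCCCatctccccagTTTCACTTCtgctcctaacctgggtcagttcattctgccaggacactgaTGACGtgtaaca
H2-Q10, chr17:35469889-35469994, forward strand: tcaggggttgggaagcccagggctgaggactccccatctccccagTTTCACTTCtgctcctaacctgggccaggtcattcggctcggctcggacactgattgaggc
The stretch of H2-Q10 holds the interferon type letters but no NF-kB type motif and no TGACG, whereas those of H2-K1 and H2-Q7 hold all 3 kinds. An NF-kB type motif of H2-Q10 lies past the end of its stretch, 89 bases before the start on the other strand. H2-K1 and H2-D1 were 94.3% identical over this stretch of 106 bases, H2-K1 and H2-Q10 were 75.5% identical, and H2-Q7 and H2-Q10 were 60.4% identical. In B2m the capitals mark only the longer interferon response element (GAAA repeated after 2 other bases) and TGACG. NF-kB type letters, 127 and 126 bases before the start, also lie in its stretch but are not marked. The same holds for CCAAT on the other strand, 53 bases before the start.
B2m, chr2:122147537-122147685, forward strand: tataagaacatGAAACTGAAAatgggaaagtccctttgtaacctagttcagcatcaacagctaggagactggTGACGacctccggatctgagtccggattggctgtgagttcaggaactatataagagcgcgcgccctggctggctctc
Over all 27025 promoter windows, GAANNGAAA was found on either strand in 7.56%, the longer interferon element in 3.49%, TTCNNNGAA in 8.47%, the NF-kB type letters in 50.4%, TGACG in 21% and CCAAT in 37.9%. Of the 9 members, 4 had GAANNGAAA (H2-K1, H2-D1, H2-Q7 and H2-Q10), 2 the longer element (B2m and H2-T23), 1 TTCNNNGAA (Psmb8), 7 the NF-kB type letters (all but H2-T23 and Psmb8), 6 TGACG and 7 CCAAT. The searches for TGACG, for CCAAT and for GAANNGAAA were added after the windows had been seen, and a match is a description of letters and not of a bound site.

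Levels of the heavy chains differed between cell classes, and they did so in different orders. Values by class are a description with no test, since the classes are clusters of the same cells, although the members themselves were left out of the clustering. H2-K1 was highest in NK cell-like cells, with a median of 4437 CPM (range 3790.1 to 4985 over 5 libraries), followed by T cell-like cells at 3339 (2771 to 3567 over 8 libraries). The ranges of these 2 classes overlapped neither each other nor those of the remaining classes, which descended from 2144 in dendritic-like, 2081 in macrophage-like and 1888 in monocyte-like cells to 1268 (862 to 1675) in neutrophil-like cells, with overlap between neighbours. H2-D1 was far more even, from 4842 (4706 to 5655) in NK cell-like cells to 3406 (2871 to 4245) in monocyte-like cells, a 1.42-fold span against 3.50-fold for H2-K1, and only the NK cell-like range stood clear of the next class. Neutrophil-like cells thus had H2-D1 at 3481, within the ranges of monocyte-like, macrophage-like and dendritic-like cells and below those of T cell-like (3879 to 4616) and NK cell-like cells, while their H2-K1 was the lowest of the 6 classes. By cluster, H2-D1 had higher medians than in NK cell-like cells in the dendritic-like cluster led by Fscn1 and Ccl22, at 5223 (4307 to 6566). The same held for a macrophage-like cluster of 960 cells, at 4986 (3871 to 5262).

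H2-Q7 showed the steepest lymphocyte pattern of the 5 heavy chains among the members. Its median was 665 CPM (605 to 773) in NK cell-like cells, 382 (328 to 485) in T cell-like cells and 195 (146 to 249) in dendritic-like cells, and these 3 ranges were separate from one another. Monocyte-like (102), macrophage-like (75.9) and neutrophil-like cells (59.5) followed with overlapping ranges, giving an 11.2-fold span. H2-T23 had its highest median in dendritic-like cells, at 182 (135 to 249), then 140.2 in T cell-like, 136 in NK cell-like, 116 in monocyte-like, 96.5 in macrophage-like and 81.3 in neutrophil-like cells, and each range overlapped that of the next class. Of the 14 other class I and class I-like heavy chains listed, 12 were in the tables. H2-Q6, a neighbour of H2-Q7 of the same Qa-2 group, followed the order of H2-Q7 at its top, with a median of 1217 in NK cell-like, 484 in T cell-like and 211 in dendritic-like cells.

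**Figure D1:**
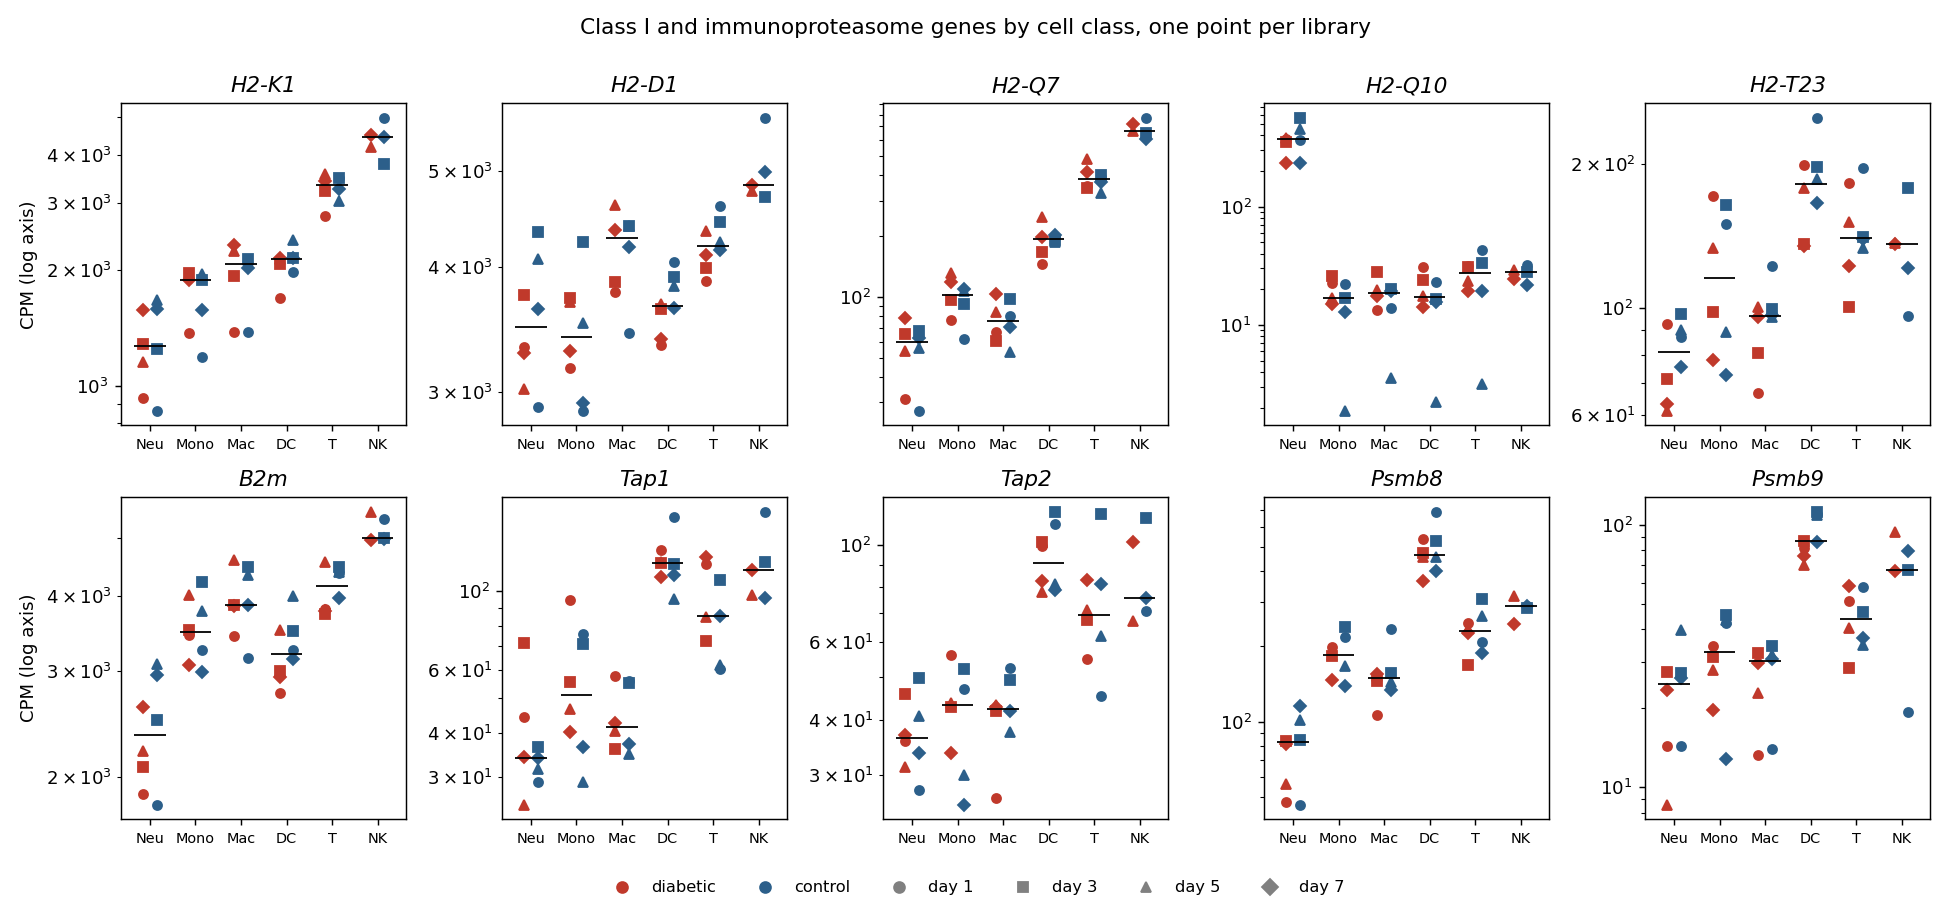
CPM (log axis) of the 10 genes in 6 cell classes, with 1 point per library coloured by arm and shaped by day, and bars at the medians. H2-Q10 is the 1 gene whose points lie highest in neutrophil-like cells (234 to 563), while Psmb8 is highest in dendritic-like cells (364 to 692) and H2-K1, H2-D1, H2-Q7 and B2m in NK cell-like cells.

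H2-Q10 was the exception among the members, as it was found mostly in neutrophil-like cells. It stood in them at 371, 354, 380 and 235 CPM on days 1, 3, 5 and 7 in the diabetic libraries and at 368, 563, 449 and 234 in the control libraries. In the other 5 classes the medians were 28.1 (NK cell-like), 27.2 (T cell-like), 18.5 (macrophage-like), 17.1 (dendritic-like) and 16.9 (monocyte-like), so the neutrophil median was 21.8-fold that of the lowest class and no range of another class reached the neutrophil range. Thinned to 1000 UMIs per cell, which left out 730 of 13710 neutrophil-like cells, a median of 26.4% of neutrophil-like cells had a UMI of H2-Q10 (25.4% to 38.1% over libraries, 42.0% unthinned) against medians of 1.71% to 2.24% in the other classes. The median depths of neutrophil-like cells were 2156 to 2889 UMIs over libraries, below those of monocyte-like (6665 to 10873) and dendritic-like cells (6529 to 9182). Within the neutrophil-like cells the level differed by cluster, with a median of 559 in the cluster led by Cxcr2 and Lrg1, 482 in that led by Ngp and Retnlg, 323 in a further cluster with Cxcr2, 305 in that led by Gm5483 and Il1f9 and 168 in that led by Il23a and Tnf. These medians are over 8, 5, 5, 6 and 8 libraries in that order, so they cover different days. The order did not hold in the control library of day 7. There the Cxcr2 and Lrg1 cluster stood at 112, below the lowest value of the further Cxcr2 cluster in any library (246). Igkc and Igha, immunoglobulin genes, were also among the 10 leading genes of the Cxcr2 cluster with the most cells.

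The low level of H2-Q10 outside neutrophil-like cells was set beside that of 4 neutrophil genes, the abundant calgranulins S100a8 and S100a9 and the receptor genes Csf3r and Cxcr2. As a share of the neutrophil level of the same library, H2-Q10 had medians of 5.77% in monocyte-like, 4.52% in macrophage-like, 6.11% in dendritic-like, 8.25% in T cell-like and 8.75% in NK cell-like cells, and S100a8 had 5.91%, 6.45%, 5.33%, 6.92% and 6.06% in the same order. The shares of Cxcr2 were lower, at 1.64%, 1.95%, 1.06%, 1.87% and 2.26%, and those of Csf3r were 8.13%, 10.8%, 3.82%, 3.43% and 2.65%, so that H2-Q10 was above Cxcr2 in each class by its median, and above Csf3r in dendritic-like, T cell-like and NK cell-like cells. H2-Q10 was above S100a8 in 15 and above S100a9 in 23 of 37 class and library profiles, and the 2 shares ran together over the profiles (Spearman's rho 0.70, as a description, since profiles of 1 library share its cells). In the control library of day 5, where neutrophil-like cells held 2.91% of the library's UMIs, H2-Q10 stood at 0.42% to 0.79% of the neutrophil level in the other 4 classes with a value. How much of the H2-Q10 in these classes is free RNA of neutrophils was not tested.

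**Figure D2:**
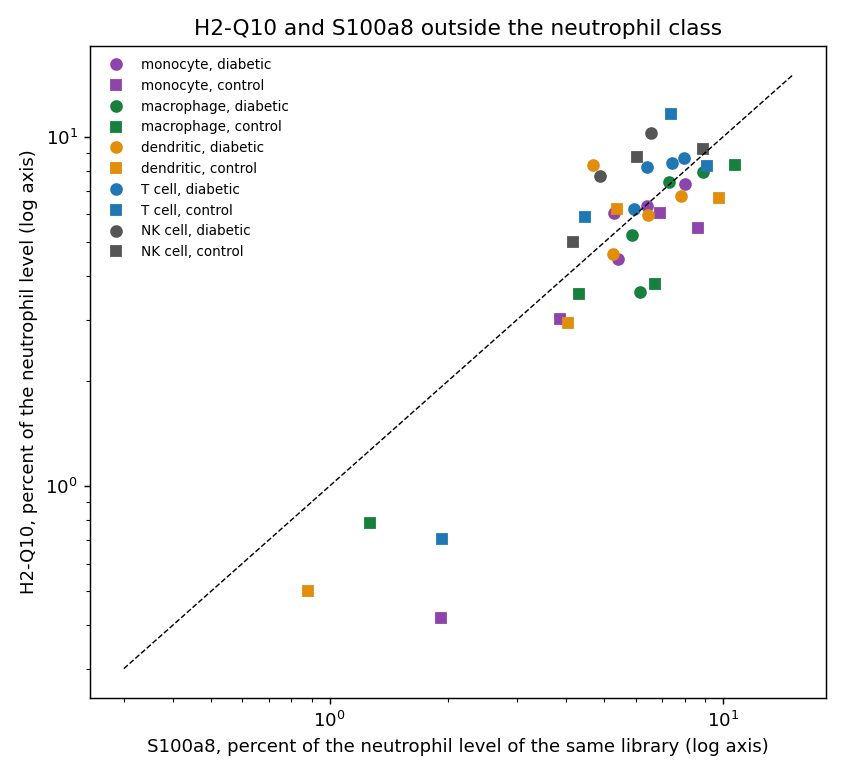
Level of H2-Q10 against that of S100a8 in each class outside the neutrophil-like cells, both as a percent of the neutrophil-like level of the same library (log axes, 1 point per class and library, dashed line where both are equal). The points scatter about the line, 15 of 37 above it, and the control library of day 5 lies at the lower left.

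B2m, the light chain needed by all of these heavy chains, had its highest median in NK cell-like cells at 4994 CPM (4961 to 5529), clear of T cell-like cells at 4165 (3735 to 4567). It then stood at 3874 in macrophage-like, 3481 in monocyte-like, 3201 in dendritic-like and 2347 (1799 to 3079) in neutrophil-like cells, the last below the dendritic-like cells in 8 of 8 libraries. This order holds by class only. The dendritic-like cluster led by Fscn1, Ccl22 and Ccr7 had B2m at a median of 5390 (4425 to 6528), above that of NK cell-like cells. The order of the peptide-loading genes was different, with dendritic-like cells at the top of all 4. Tap1 had a median of 119.7 in dendritic-like, 115 in NK cell-like and 85.0 in T cell-like cells, and dendritic-like and NK cell-like cells did not differ beyond their spread, as the dendritic-like level was higher in 2 of 5 libraries. Tap2 ran from 91.0 (78.2 to 119) in dendritic-like cells to 36.3 (27.8 to 49.9) in neutrophil-like cells.

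Psmb8, the inducible chymotrypsin-like subunit LMP7, separated dendritic-like cells from all others. Its level in them was 536, 471, 454 and 364 CPM in the diabetic and 692, 527, 456 and 399 in the control libraries of days 1, 3, 5 and 7, against 289 (245 to 317) in NK cell-like, 230.3 in T cell-like, 184 in monocyte-like, 149 in macrophage-like and 82.5 (46.5 to 115) in neutrophil-like cells. Every dendritic-like value was above every value of another class, and the span was 5.61-fold. Psmb9, the inducible subunit LMP2, ran in the same order from 86.5 (70.5 to 112) to 24.8 (8.59 to 39.7), with overlapping ranges. Thinned to 1000 UMIs, a median of 33.4% of dendritic-like cells had a UMI of Psmb8 (73.4% unthinned) against 4.76% of neutrophil-like cells (12.3% unthinned).

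Dendritic-like and T cell-like cells were not uniform. The dendritic-like cluster led by Fscn1, Ccl22 and Ccr7, genes of mature migrating dendritic cells (495 cells), had Psmb8 at a median of 951 CPM (592 to 1308), Psmb9 at 144, H2-K1 at 3441 and H2-Q7 at 529. The cluster led by Cd209a and Mgl2 (2425 cells) had Psmb8 at 362 (297 to 478), Psmb9 at 74.3, H2-K1 at 1922 and H2-Q7 at 117, and the ranges of Psmb8, H2-K1 and H2-Q7 in these 2 clusters did not overlap. Among T cell-like cells, those led by Ctla4 and Trac had Psmb8 at 269, Psmb9 at 59.1 and Tap1 at 118, while those led by Il17f and Trdc, genes of interleukin-17-producing gamma-delta T cells, had 148, 16.5 and 44.8, although H2-K1 (3367 and 3219) and H2-Q7 (386 and 394) were nearly equal.

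The balance of inducible to constitutive subunits was taken as the UMIs of Psmb8, Psmb9 and Psmb10 over those of these genes and Psmb5, Psmb6 and Psmb7. The inducible share was 75.1% (71.0% to 79.7%) in dendritic-like cells, 69.9% in NK cell-like, 63.3% in T cell-like, 58.3% in monocyte-like, 56.4% in neutrophil-like, 55.0% in macrophage-like and 46.6% in osteoclast-like cells, as medians over libraries. In dendritic-like cells it was lower in the diabetic library on 4 of 4 days, with 74.6%, 78.0%, 71.1% and 71.0% against 76.0%, 79.7%, 75.6% and 73.2%. These differences of 1.38 to 4.52 percentage points were not tested, and on days 1, 3 and 7 the exact binomial 95% intervals of the arms overlapped, whereas on day 5 they did not (69.7% to 72.5% and 73.4% to 77.7%). Taken as Psmb8 over Psmb8 and Psmb5, the share on day 5 turned round, at 90.2% in the diabetic and 89.4% in the control library, and was lower in the diabetic library on the other days, while as Psmb9 over Psmb9 and Psmb6 it was lower on 4 of 4 days, with 32.0% and 46.7% on day 5.

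The first comparison asked whether the genes differed between diabetic and control wounds. In whole libraries, none of the 10 members passed the test (edgeR's quasi-likelihood test, Benjamini-Hochberg adjustment), beside 0.0% of the 12905 genes tested. At an unadjusted p under 0.05 there were 1458 genes and 1 member, and DESeq2 called 84 genes and 0 members. Tap1 was the member with the lowest p. It stood at 78.5, 66.1, 61.8 and 71.0 CPM in the diabetic libraries and at 61.1, 70.8, 40.4 and 46.8 in the control libraries of days 1, 3, 5 and 7, so the diabetic library was higher on days 1, 5 and 7 and lower on day 3. The shared difference, diabetic over control, was 0.43 ± 0.16 (log2, SE, n = 4 libraries per arm), with an adjusted p of 0.440 by edgeR. The members' median log2 difference was 0.11, against 0.02 over all genes tested.

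Some differences between whole libraries moved with the make-up of the cells. H2-Q10 stood at 119.4 CPM in the diabetic and 16.7 in the control library of day 5, a ratio of 7.13, on a day when 45.7% and 7.8% of their cells were neutrophil-like. With the levels of the 6 classes given the same weights in both libraries, the ratio was 0.95. Cells outside these classes were left out of the weighted levels. Of them, the osteoclast-like and unnamed cells held 20.5% and 8.06% of the UMIs of the control library of day 5, and 1.41% and 2.50% of the diabetic library. H2-Q7 was 187 and 87.4 on day 5 and 188 and 113 on day 7, ratios of 2.14 and 1.67 that came to 1.33 and 1.16 with equal class weights, and T cell-like cells, where H2-Q7 is high, made up 11.7% and 18.5% of the diabetic cells of these days against 5.0% and 10.6% of the control cells. The Tap1 ratios of 1.29, 0.93, 1.53 and 1.52 came to 1.10, 0.95, 1.22 and 1.11. Other ratios moved away from 1 or across it with these weights. Psmb9 on day 5 went from 0.89 to 0.60 and Psmb8 on day 1 from 0.99 to 0.77. On day 1 Tap2 went from 1.22 to 0.92 and H2-T23 from 1.10 to 0.90. Of 40 library ratios (10 genes on 4 days), the exact 95% counting interval lay above 1 in 18, below 1 in 16 and across it in 6, and no member had its interval on 1 side of 1 on all 4 days. In whole libraries, fewer cells of a type and less RNA per cell cannot be told apart.

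**Figure D3:**
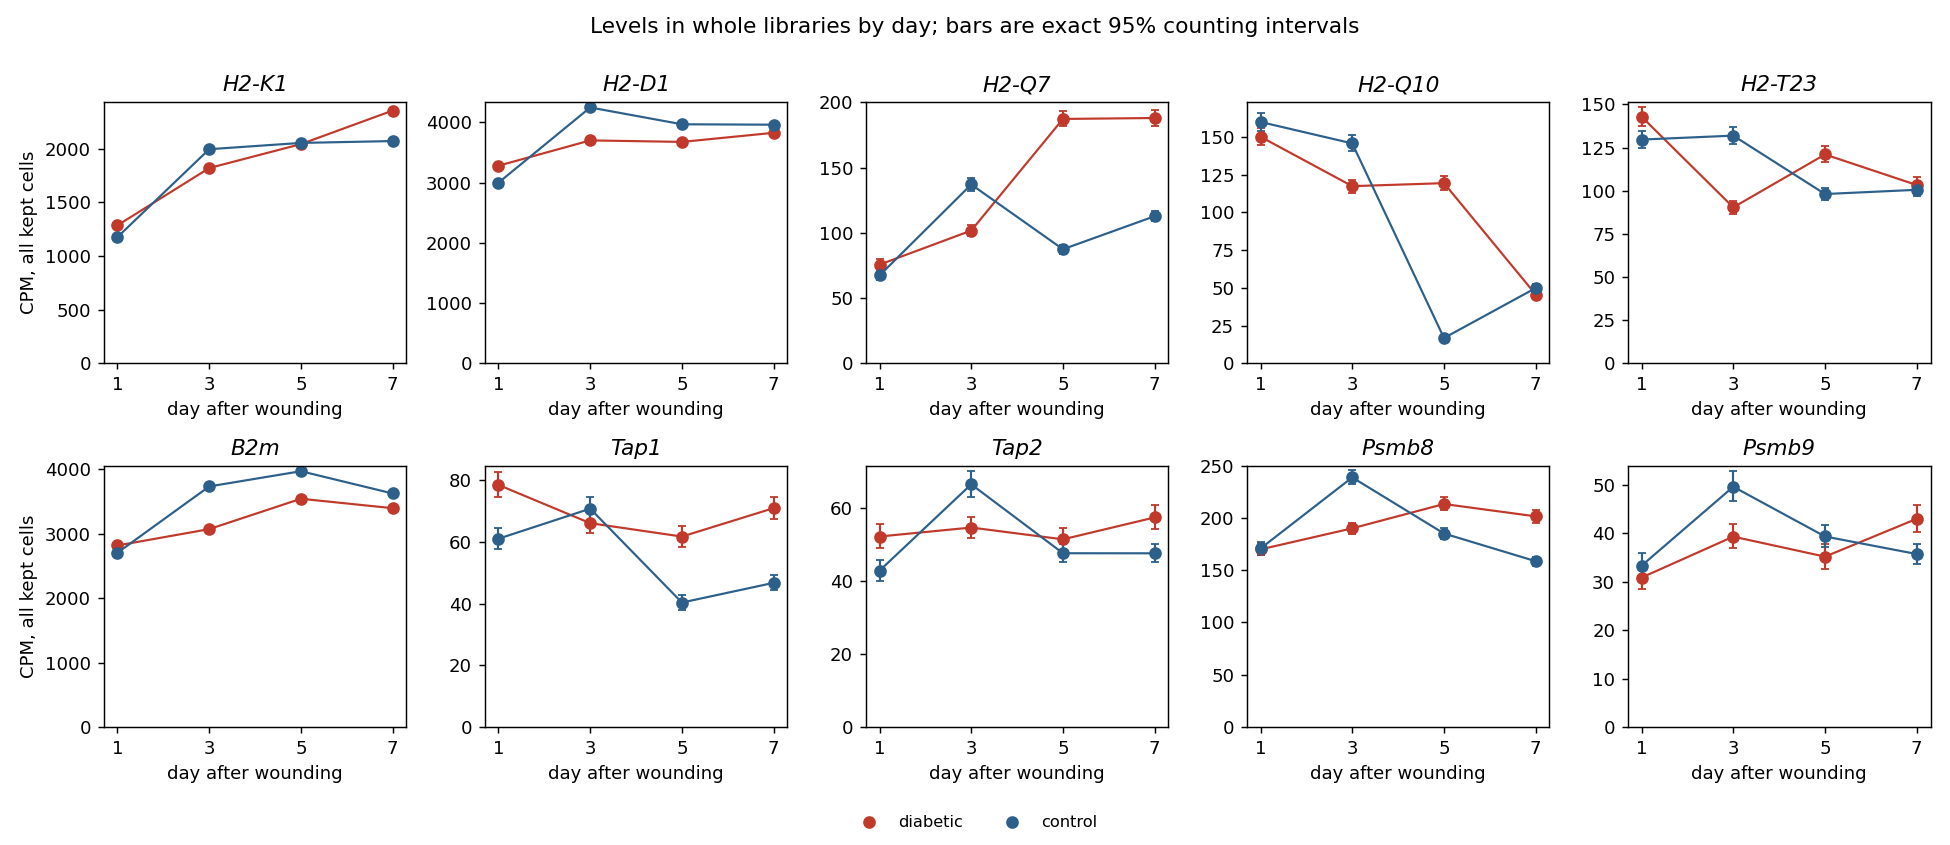
CPM of the 10 genes in all kept cells of each library against day, by arm, with exact 95% counting intervals as bars (which leave out variation between mice). The arms cross for most genes, and H2-Q10 in the control library of day 5 (16.7) lies far below the diabetic library of that day (119.4).

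Within classes the test between arms called no member either. The share of all genes called was 0.0% in neutrophil-like (9391 tested, 875 at an unadjusted p under 0.05, 44 by DESeq2), 0.0% in monocyte-like (9650, 667 and 10), 0.0% in macrophage-like (9848, 686 and 13), 0.0108% in dendritic-like (9268, 581 and 15) and 0.0% in T cell-like cells (8160, 240 and 0), and DESeq2 called 0 members in each. NK cell-like cells had too few cells in 3 libraries to be tested. Tap1 in neutrophil-like cells was at 44.3, 71.5, 25.1 and 34.1 CPM in the diabetic and 29.1, 36.4, 31.6 and 33.9 in the control libraries, with an estimate of 0.44 ± 0.20 and an adjusted p of 0.535 by edgeR. The diabetic value was higher on days 1 and 3, nearly equal on day 7 and lower on day 5.

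Dendritic-like cells showed the most one-sided values between arms, though none passed the test. The diabetic library had the lower level of H2-K1, H2-D1, H2-T23, B2m, Psmb8 and Psmb9 on 4 of 4 days, and 9 of the 10 members had a negative estimate with a median of -0.15, against 0.00 over all 9268 genes. Psmb9 stood at 81.7, 86.6, 70.5 and 76.2 CPM in the diabetic and 109.8, 112, 109 and 86.3 in the control libraries of days 1, 3, 5 and 7, and the groups did not overlap except that the control value of day 7 was just below the diabetic value of day 3. The estimate was -0.42 ± 0.13 (log2, SE, n = 4 per arm), with an unadjusted p of 0.00826 and an adjusted p of 0.651 by edgeR. H2-T23, the Qa-1 chain, was at 198, 136, 178 and 134.9 against 249, 197, 186 and 166, with -0.33 ± 0.12 and an adjusted p of 0.689 by edgeR. B2m was at 2761, 2999, 3518 and 2931 against 3260.2, 3494, 4006 and 3142, ratios of 0.85, 0.86, 0.88 and 0.93 with counting intervals below 1 on each day, and an estimate of -0.21 ± 0.10 with an adjusted p of 0.792 by edgeR.

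Part of this pattern was smaller within 1 dendritic-like cluster. In the Cd209a cluster the median ratio of diabetic to control over the 4 days was 0.75 for Psmb9 (0.61 to 1.01) and 0.78 for H2-T23 (0.64 to 1.17), but 0.98 for B2m, 1.02 for Psmb8 and 1.01 for H2-K1. In the Fscn1 cluster it was 0.76 for Psmb9, 0.84 for H2-T23, 0.85 for Psmb8, 0.89 for B2m, 0.88 for H2-D1 and 0.98 for H2-K1. There B2m, H2-D1 and Tap1 (0.89) were below 1 on 4 of 4 days. The Fscn1 cluster, with the higher levels of these genes, made up 9.9%, 17.3%, 18.8% and 16.3% of the diabetic and 22.7%, 14.8%, 22% and 17.3% of the control dendritic-like cells, lower in the diabetic library on days 1, 5 and 7.

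In the remaining classes, H2-Q7 and H2-Q10 in monocyte-like cells had ratios above 1 on all 4 days (1.05 to 1.24 and 1.00 to 9.01), and Psmb9 in macrophage-like cells below 1 on all 4 days (0.71 to 0.97). Counting intervals crossed 1 on 2 of 4 days for H2-Q7, on 2 of 4 for H2-Q10 and on 4 of 4 for Psmb9. On day 1 Psmb9 rested on 3 and 4 UMIs in these cells, and the control value of H2-Q10 on day 5 rested on 2. The H2-Q10 ratio of 9.01 falls on day 5, where neutrophil-like cells were scarce in the control library, and the share of H2-Q10 in monocyte-like cells (5.77% of the neutrophil level) was near that of S100a8 and above that of Cxcr2. T cell-like and neutrophil-like cells had no member on 1 side of 1 on all days. The counting intervals of 40 ratios lay above and below 1 in 7 and 14 cases in neutrophil-like, 18 and 10 in monocyte-like, 12 and 7 in macrophage-like, 3 and 23 in dendritic-like and 11 and 13 in T cell-like cells.

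The second comparison asked whether levels changed from day 1 to day 7, as a slope per day shared by both arms. In whole libraries none of the 10 members passed the test, beside 10.3% of 13332 genes called (461 higher and 917 lower on later days, or 1900 higher and 483 lower with libraries scaled by their totals alone), and 4 of the 10 members had an unadjusted p under 0.05, as had 4160 of all genes. H2-Q10, at 150.1, 117, 119 and 45.6 CPM in the diabetic and 159.9, 146, 16.7 and 49.9 in the control libraries, had a slope of -0.38 ± 0.11 per day (log2, SE, n = 8) and an adjusted p of 0.0553 by edgeR. Neutrophil-like cells, where H2-Q10 is highest, held 36.3% and 39.6% of the UMIs of the diabetic and control libraries on day 1 and 13.1% and 14.4% on day 7, and their part in this slope was not tested. H2-T23 (-0.14 ± 0.04) and Tap1 (-0.14 ± 0.04) each had an adjusted p of 0.0523 by edgeR, and DESeq2 called 3 members, beside 21.3% of all genes. With totals alone these slopes were -0.06 and -0.06, with adjusted p of 0.170 and 0.217 by edgeR. The classical chains H2-K1 (0.05 ± 0.03) and H2-D1 (-0.03 ± 0.03) were not called and had an unadjusted p over 0.05. Their CPM, which carry no TMM factor, were higher on day 7 than on day 1 in both arms. The ratios were 1.83 (diabetic) and 1.76 (control) for H2-K1, and 1.17 and 1.32 for H2-D1.

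In neutrophil-like cells, 5 of the 10 members were called, all lower on later days, beside 41.4% of 9946 genes called in either direction and 19.4% called lower. They were H2-Q10 (-0.25 ± 0.06 per day, adjusted p = 0.00558 by edgeR), H2-T23 (-0.22 ± 0.04, 0.00119), Tap1 (-0.21 ± 0.05, 0.00691), Tap2 (-0.15 ± 0.05, 0.0189) and H2-D1 (-0.14 ± 0.05, 0.0400), while H2-K1, H2-Q7, B2m, Psmb8 and Psmb9 lay between -0.06 and 0.02 and were not called. H2-T23, which encodes Qa-1, went from 93.0 to 63.2 CPM from day 1 to day 7 in the diabetic and from 87.1 to 75.5 in the control libraries. H2-Q10 went from 371 to 235 and from 368 to 234, a day 7 to day 1 ratio of 0.64 in each arm. The CPM of the other 3 called members, which carry no TMM factor, were not lower on day 7 in both arms. H2-D1 went from 3331 to 3282 in the diabetic but from 2894 to 3631 in the control libraries, Tap1 from 44.3 to 34.1 but from 29.1 to 33.9, and Tap2 from 35.8 to 36.9 and from 27.8 to 33.7.

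These calls rested on the scaling between libraries. The TMM factors, which align the bulk of the genes, ran from 0.65 and 0.74 on day 1 to 1.30 and 1.44 on day 7, and moved the median slope of all genes from 0.17 per day with totals alone to 0.02. With totals alone, none of the 5 was called (H2-D1 0.01, Tap2 -0.00, Tap1 -0.06, H2-T23 -0.07 and H2-Q10 -0.10 per day), and H2-K1 (0.13, adjusted p = 0.0214 by edgeR), H2-Q7 (0.17, 0.0329) and Psmb8 (0.14, 0.0388) were called higher, with 4652 genes higher and 455 lower in place of 2193 and 1927. Relative to the median gene the slopes were nearly the same either way, at -0.27 for H2-Q10, -0.23 for H2-T23, -0.22 for Tap1, -0.17 for Tap2 and between -0.16 and -0.15 for H2-D1.

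The make-up of the neutrophil-like cells changed over the same days. The 11 macrophage markers listed, none at 0, summed to 535 and 711 CPM in the neutrophil-like cells of day 1 (diabetic and control) and to 9235 and 11831 on day 7, and C1qa, a complement gene of macrophages, stood at 10.7 and 19.7 on day 1 and at 437 and 590.3 on day 7. The class II gene H2-Aa went from 292 and 261 to 3251 and 2683. The smaller of both clusters with Cxcr2, led by Ighg2b and Igkc (1273 cells), made up 43.7% and 79.2% of the neutrophil-like cells on day 7, and another (Gm5483, Il1f9) 41.4% and 49.6% on day 1. Their part in the slopes was not tested. Within the Cxcr2 and Lrg1 cluster alone, present in all 8 libraries, where H2-Aa still ran from 303 to 4333 CPM, 2 members were called lower beside 18.7% of 6505 genes, H2-Q10 (-0.36 ± 0.09, adjusted p = 0.00804 by edgeR) and H2-T23 (-0.16 ± 0.05, 0.0230). Without the diabetic library of day 7, 2 members were called lower (H2-Q10 and H2-T23, beside 10.3% of all genes), and without the control library of day 7 also 2 (H2-T23 and Tap1, beside 10.4%).

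**Figure D4:**
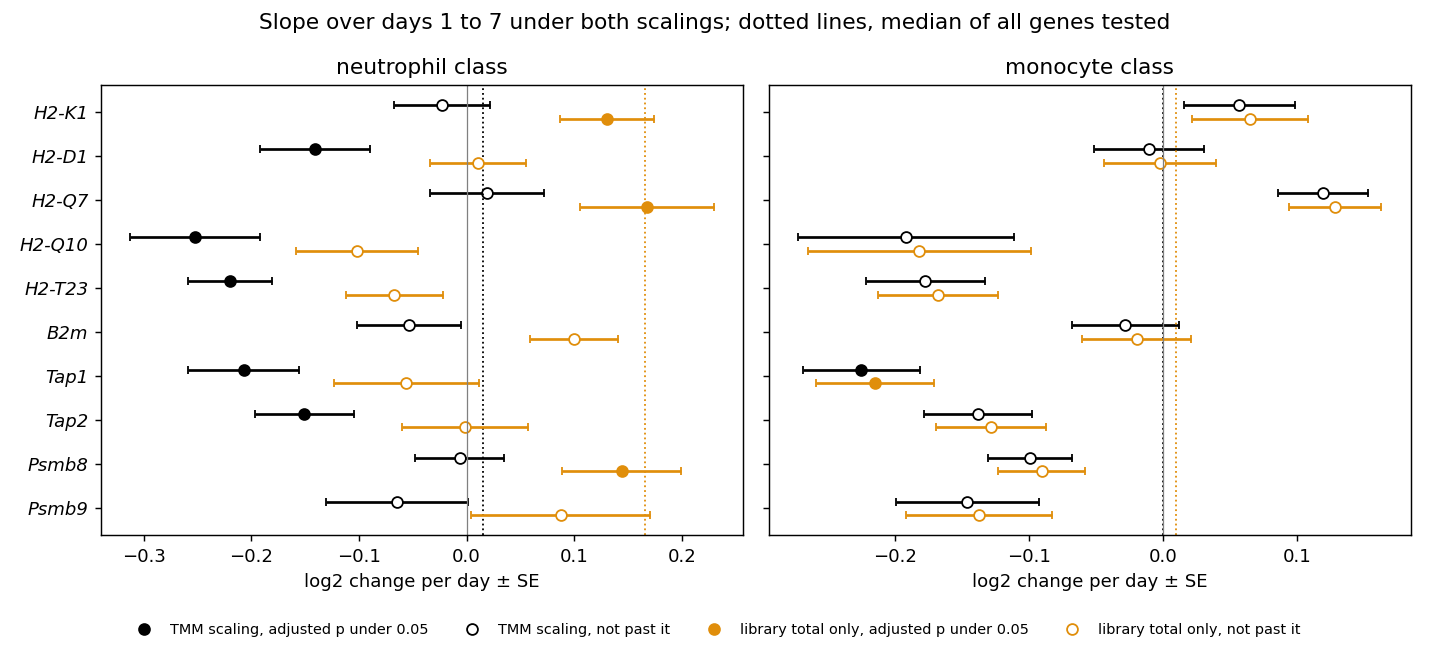
Slope per day (log2, ± SE) of the 10 genes in neutrophil-like and monocyte-like cells, with TMM scaling and with library totals alone. Filled points have an adjusted p under 0.05 and dotted lines give the median slope of all genes, which in neutrophil-like cells is 0.02 with TMM and 0.17 with totals, so that the pattern of the members shifts as a whole.

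In monocyte-like cells Tap1 was the 1 member called, beside 0.981% of 9990 genes called in either direction and 0.46% called lower. It stood at 94.2, 55.4, 46.6 and 40.1 CPM in the diabetic and 75.9, 70.9, 29.1 and 36.4 in the control libraries of days 1, 3, 5 and 7, lower on days 5 and 7 than on days 1 and 3 in both arms. The slope was -0.23 ± 0.04 per day with an adjusted p of 0.0354 by edgeR, and over the alternatives the slope lay between -0.31 and -0.17 and the adjusted p between 0.00137 and 0.382. Markers of other cell types moved in the same class. From day 1 to day 7 the 11 macrophage markers, none at 0, summed to 3883 and then 9101 CPM in the diabetic and to 5294 and then 9740 in the control libraries, the 11 neutrophil markers went from 3865 to 1136 and from 3572 to 1198 (1 marker at 0 on day 7 in each arm), and the 9 T cell markers from 18.6 to 202 and from 24.2 to 131 (1 at 0 in the control library of day 7). Their part in the slope of Tap1 was not tested. The call was lost without any 1 of the diabetic libraries of day 1, 5 or 7 or the control libraries of day 1 or 7. Of the 10 members, 8 had a negative slope and the median was -0.12, against 0.00 over all genes, and 7 of the 10 had an unadjusted p under 0.05, as had 1380 of the 9990 genes.

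No member passed the trend test in macrophage-like cells (0.562% of 10146 genes called), dendritic-like cells (0.312% of 9604) or T cell-like cells (0.129% of 8521). At an unadjusted p under 0.05 there were 1, 4 and 0 members respectively, of 959, 1118 and 692 genes, and DESeq2 called 0, 1 and 0 members, the 1 in dendritic-like cells beside 1.61% of all genes. The lowest adjusted p was that of Psmb8 in dendritic-like cells, whose values given above were lower on each later day in both arms, at -0.11 ± 0.03 per day and 0.0967 by edgeR, and in macrophage-like cells H2-K1 was the 1 member with an unadjusted p under 0.05 (0.11 ± 0.04, adjusted p = 0.311 by edgeR).

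The third comparison asked whether the slope differed between arms, and no member was called by edgeR or DESeq2 in whole libraries or in any class. A missed call in this test does not show that the slopes were alike. Called genes made up 0.0% in libraries (240 at an unadjusted p under 0.05, 2 by DESeq2), 0.0% in neutrophil-like (270 and 1), 0.0% in monocyte-like (184 and 0), 0.00946% in macrophage-like (217 and 2), 0.0% in dendritic-like (207 and 0) and 0.0% in T cell-like cells (307 and 0). In macrophage-like cells Psmb8 (difference of slopes 0.19 ± 0.08 per day, adjusted p = 1.00 by edgeR) and H2-Q7 (0.22 ± 0.10) had an unadjusted p under 0.05. Psmb8 went from 107 to 155 CPM from day 1 to day 7 in the diabetic and from 235 to 133 in the control libraries, where day 1 held only 56 and 66 macrophage-like cells.

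Interferon response genes, which are known to rise with the class I route, were followed as a list of 29 genes. In whole libraries 16 of 29 were called lower on later days and none higher, beside 6.88% of all genes called lower, with a median slope of -0.22 against 0.02 over all genes, among them Rsad2 (-0.43 ± 0.09) and Usp18 (-0.40 ± 0.05). In neutrophil-like cells 21 of 28 tested were called lower and 1, Iigp1, higher (0.46 ± 0.17), with a median of -0.28, beside 19.4% and 22% of all genes. In monocyte-like cells 3 of 29 were called lower (Usp18, Irf7 and Gbp2), beside 0.46% of all genes. With library totals alone, 11 of 29 in whole libraries and 10 of 28 in neutrophil-like cells were called lower (3.62% and 4.57% of all genes), and 3 in neutrophil-like cells higher (46.8% of all genes). Between arms 0 of 29 were called in whole libraries, beside 0.0% of all genes. There 8 had an unadjusted p under 0.05, and 26 estimates were positive and 3 negative, with a median of 0.29 against 0.02 over all genes. In macrophage-like cells 0 of 29 were called and 10 were under that p. There 23 were positive and 6 negative (median 0.46, against -0.00), and in monocyte-like cells 13 and 15. In neutrophil-like cells 0 of 26 were called and 6 were under that p, with 20 positive and 6 negative (median 0.25, against -0.02). The counts of all genes under that p are given above with each test.

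Cells with high interferon response genes were drawn together when those genes were kept for the clustering, a choice made after seeing the data. The 10 members were left out of this clustering too, but the cells were grouped by other genes of the same cells. The cells formed a neutrophil-like cluster of 1122 cells and a monocyte-like cluster of 676 cells, led by genes such as Rsad2 and Ifit1 in the former, and their levels are a description with no test. The neutrophil-like cluster made up 15.4%, 5.5%, 6.0% and 2.9% of the class in the diabetic and 12.1%, 5.4%, 4.5% and 2.1% in the control libraries of days 1, 3, 5 and 7, highest on day 1 in both arms. The monocyte-like cluster made up 26.1%, 8.5%, 11.3% and 13.0% and 22.2%, 11.9%, 11.1% and 24.6%, and the last of these counts 14 of 57 cells.

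The members differed in how far their level in these cells lay above that in the rest of the class. In neutrophil-like cells the level of Tap1 was 3.85-fold that of the other cells of the class (median of 7 libraries, range 1.57 to 6.43), followed by Psmb8 at 2.48-fold, Psmb9 at 2.40-fold, H2-T23 at 2.31-fold (2.08 to 3.24), Tap2 at 1.80-fold, B2m at 1.46-fold, H2-K1 at 1.45-fold and H2-D1 at 1.24-fold (1.14 to 1.51), each above 1 in 7 of 7 libraries. H2-Q7 varied from 0.68 to 2.99, and H2-Q10 lay about 1, with a median of 0.91 and 2 of 7 libraries above 1. In monocyte-like cells the order was alike, with Tap1 at 3.85-fold, Psmb9 at 3.46-fold, H2-T23 at 2.92-fold, Psmb8 at 2.09-fold, Tap2 at 1.91-fold, B2m at 1.67-fold, H2-K1 at 1.57-fold, H2-Q7 at 1.48-fold and H2-D1 at 1.40-fold, each above 1 in 6 of 6 libraries, and H2-Q10 at 1.13-fold. Psmb10, the third inducible subunit, was at 1.79-fold and 2.01-fold, and Nlrc5, the transactivator of class I genes, at 1.84-fold and 3.05-fold. The constitutive subunits Psmb5 (0.86 and 0.74), Psmb6 (0.91 and 1.16) and Psmb7 (1.13 and 0.68) were not above 1 in every library, with Psmb6 above 1 in 1 of 7 libraries in neutrophil-like and Psmb7 in 1 of 6 in monocyte-like cells.

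**Figure D5:**
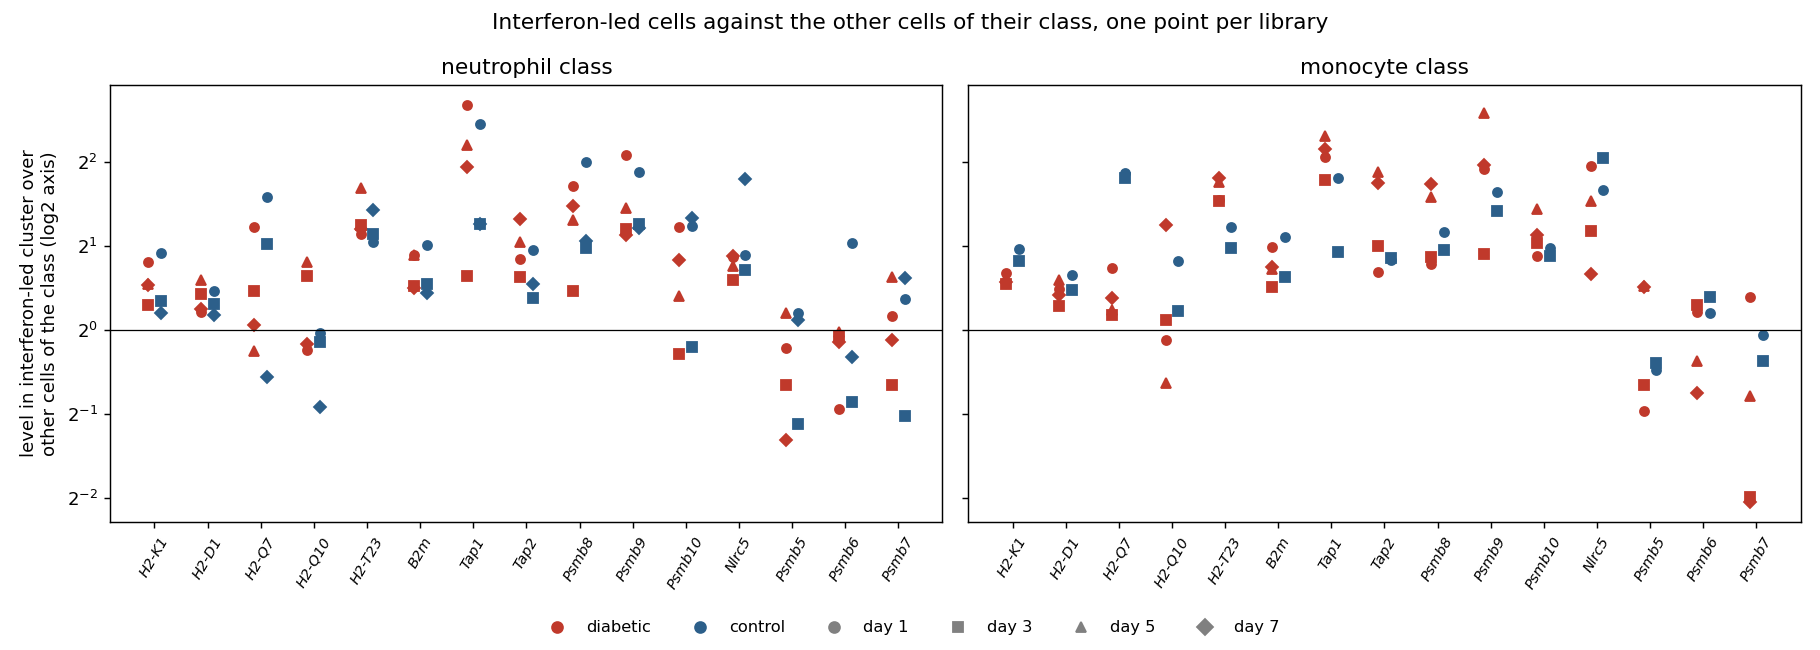
Level in the interferon-led cluster over that in the other cells of the same class and library (log2 axis), for neutrophil-like and monocyte-like cells, with 1 point per library. Tap1 lies highest in both (median 3.85), H2-D1 lies lowest of the members above 1 in every library (1.24 and 1.40), and H2-Q10 and the constitutive subunits Psmb5, Psmb6 and Psmb7 have points below 1 in both classes.

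Other genes of the route were followed as lists. Of 10 further class I pathway genes, none was called between arms in any scope, and by day 2 were called lower in whole libraries, Tapbp (-0.15 ± 0.04 per day), which encodes the loading factor tapasin, and Psmb10 (-0.11 ± 0.02), beside the 10.3% of all genes called there. The counts in neutrophil-like cells stand beside 41.4% of all genes called, 22% higher and 19.4% lower, or 46.8% higher with library totals alone. In neutrophil-like cells 3 were called higher, Erap1 (0.27 ± 0.07), Canx (0.21 ± 0.04) and Pdia3 (0.17 ± 0.04), and 2 lower, Tapbp (-0.19 ± 0.04) and Nlrc5 (-0.15 ± 0.05), while with library totals alone 7 of the 10 were called higher and none lower, and Nlrc5 had a slope of 0.00. Of the constitutive subunits, 1 of 3 was called in neutrophil-like cells, Psmb5 higher (0.16 ± 0.06), and none in whole libraries. Of 10 other heavy chains tested in whole libraries, 2 were called, Fcgrt higher (0.32 ± 0.06) and H2-T24 lower (-0.24 ± 0.06, or -0.17 and not called with totals alone). With TMM scaling, 5 of 8 other heavy chains tested were called in neutrophil-like cells, H2-T22, H2-T24 and H2-Q4 lower (not called, and still negative, with totals alone) and Fcgrt and Hfe, which are class I-like but bind immunoglobulin and the transferrin receptor, higher. Of the receptors of class I molecules, 1 of 13 tested was called in whole libraries, Pirb, an inhibitory receptor of myeloid cells (-0.18 ± 0.04). In neutrophil-like cells 3 of 5 were called, Pirb lower (-0.21 ± 0.04) and 2 genes of lymphocytes higher, Cd8a (0.62 ± 0.19) and Klrc1 (0.34 ± 0.11), which encodes NKG2A. With totals alone Pirb was called in neither, at -0.10 and -0.05. In macrophage-like cells 1 of 4 was called, beside 0.562% of all genes, Klrc1 (0.83 ± 0.14, adjusted p = 0.0233 by edgeR), at 0.0 to 10.96 CPM over the libraries against a median of 395 in NK cell-like and 125 in T cell-like cells. Markers of these lymphocytes were higher on day 7 than on day 1 in the same classes, where the 9 T cell markers summed to 23.3 and then 237 CPM in the diabetic and 18.1 and then 157 in the control neutrophil-like cells, and the 7 NK cell markers to 4.44 and then 177 in the diabetic and 21.02 and then 97.1 in the control macrophage-like cells (6 of the 7 at 0 on day 1 in each arm and none on day 7). T cell-like cells made up 2.40% and 18.5% of the diabetic library on these days. The part of other cells' RNA in the calls of Cd8a and Klrc1 was not tested. Of 7 class II genes, followed for comparison, 6 were called higher in neutrophil-like cells, where the summed macrophage markers were higher on later days too, and 0 in whole libraries, where 3 had an unadjusted p under 0.05.

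The genes whose levels ran most like those of the members over 52 class and library profiles were taken from 3429 genes. The rank correlations describe profiles that share libraries and carry no test. Psmb8 was most like Psme1 (0.95) and Psme2 (0.93), which encode the interferon-inducible proteasome activator PA28, and then H2afy (0.92), and Psmb9 was most like Psmb8 (0.85), Psme1 (0.83) and H2afy (0.82). Tap1 was most like Psme1 (0.84), Tacc1 (0.81) and Psmb8 (0.81), and Tap2 most like Psmb8 (0.82), Psme1 (0.81) and Fau (0.81). H2-D1 was most like B2m (0.80), H2-K1 (0.80) and Jmy (0.76). H2-K1 was most like Ifngr1 (0.89), which encodes a chain of the interferon-gamma receptor, Csk (0.88) and H2-Q6 (0.87), and H2-Q7 most like Brd1 (0.93), Crybg1 (0.91) and H2-Q6 (0.88). B2m was most like Ptpn18 (0.84), H2-K1 (0.82) and H2-D1 (0.80), and H2-T23 most like Cnn2 (0.79), Baz2a (0.76) and Itgb7 (0.76). H2-Q10 was most like Pglyrp1 (0.84), a granule protein gene of neutrophils, followed by Prkd3 (0.84) and Stfa2l1 (0.83).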

How the data were processed

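CD45+ cells from the wounds of streptozotocin-treated and control mice were profiled in 8 single-cell libraries, 1 per arm and day, each pooling several mice. The counts deposited by the authors are whole-number UMI counts per gene and barcode, with no normalization. Per the labels' processing notes, fastp 0.20.1 was used and the genome build was mm9, whereas the study's methods name an Ensembl release of the later mouse build, so coordinates and sequences here come from RefSeq and GENCODE on GRCm38 and not from the count tables.

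Barcodes with more than 200 genes, mitochondrial genes not counted, and under 20% mitochondrial UMIs were kept (35158 of 38959). Mitochondrial genes were then left out. Cells were clustered with scanpy 1.11.5 and leidenalg 0.10.2 in Python 3.11.15 (2000 variable genes, 10 principal components, 30 neighbours, resolution 0.8), with 87 member and listed genes left out of the clustering, and clusters were named from marker lists. Scanpy's doublet caller marked 179 cells (0.509%), which were kept and removed in an alternative. UMIs were summed per library and class (at least 20 cells) and tested with edgeR 4.0.16 in R 4.3.3 by the quasi-likelihood test, with TMM scaling, its filter on low counts and Benjamini-Hochberg adjustment at 0.05 over all genes tested. The 3 models fitted were arm with day as a factor, a slope per day with arm as a factor, and the difference of slopes. DESeq2 1.42.0, other scalings, filters, clusterings and leaving out each library were alternatives. The scripts were tested on simulated data, where the test of the difference of slopes in whole libraries made no calls, so that its lack of calls here is no sign of like slopes. Level intervals are exact Poisson and ratio intervals exact binomial at 95%, both covering counting error only. Columns in the tables are named by counters, so barcodes shared between libraries could not be counted.

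The 10 members are named as listed. From each other gene list, up to 4 genes with the largest change past the threshold were named, or the 2 most abundant where none passed (all 5 were named, after their values were seen, where a list had 5 calls), and for likeness the 3 genes with the highest rank correlation. The members, lists and marker sets were chosen with earlier results of these data known. Cells are not replicates, and p-values measure only the spread between these libraries.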

Additional observations from a re-analysis of the deposited data

How the results depend on the processing

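No member was called between arms in any of the alternatives run. Of 251 alternative values that answer a comparison, 219 were labelled as unchanged. That label covers small changes of a count, such as 4 members called in place of 5. Many of the 251 are counts from the tests between arms or of the difference of slopes, where no member was called in any setting. As almost no genes were called there in the main setting, their lack of change is no sign of firm results. For the trend in whole libraries (0 members), DESeq2 called 3 members, no filter on low counts 1 and library totals alone 1, and leaving out each library gave 0 to 2. In neutrophil-like cells (5 members), library totals alone gave 3, all of them higher, the 1 cluster of the class gave 2, and leaving out each library gave 2 to 5. In monocyte-like cells (1 member), DESeq2 called 3, no filter 2, resolutions of 0.4 and 1.6 gave 0 and 0, clustering with the listed genes kept gave 0, and leaving out each library gave 0 to 2. In dendritic-like cells (0 members), DESeq2 and no filter each called 1. With totals alone the slope changed sign, among others, for H2-D1 in neutrophil-like cells (0.0106 per day) and for Tap2 in whole libraries (0.0053 per day). In neutrophil-like cells H2-K1 and Psmb8, at -0.02 and -0.006 per day with TMM scaling, also turned positive and were called higher, as given above. For the other cases the cause was not tested. Totals alone, the 1 cluster of a class and the summed markers were added after seeing the data. Of 425 other alternative values, 382 stayed the same, 15 passed the threshold, 26 lost it and 2 changed sign.

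The inducible share taken as Psmb8 over Psmb8 and Psmb5 was 84.0% in libraries, 79.0% in neutrophil-like and 90.6% in dendritic-like cells, and as Psmb9 over Psmb9 and Psmb6 it was 23%, 30.6% and 39.4%. Thinned to 2000 UMIs, 37.9% of neutrophil-like cells had a UMI of H2-Q10 and 49.5% of dendritic-like cells a UMI of Psmb8. Over all genes, DESeq2 called 2846 genes for the library trend against 1378, 358 against 98 in monocyte-like, 127 against 57 in macrophage-like, 155 against 30 in dendritic-like and 79 against 11 in T cell-like cells. No filter called 421, 257, 356 and 161 in these 4 classes, and 147, 97, 140, 126 and 27 genes between arms in neutrophil-like, monocyte-like, macrophage-like, dendritic-like and T cell-like cells. Library totals alone called 2383 for the library trend.

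No paired analysis was possible by replicate number because each group of an arm and day has 1 library, while the test between arms compares the libraries of each day with each other as it stands. With the listed genes kept for clustering, the cluster named NK cell-like (2034 cells) had Trac and Ctla4 among its leading genes. Clusters of 900 and 54 cells, with Trdc among their leading genes, were still named T cell-like. No T cell-like test is given for that setting. Depth limits the low genes most, as Psmb9 rests on 86 to 357 UMIs per library in dendritic-like cells. In macrophage-like cells of day 1 it rests on only 3 (diabetic) and 4 (control) UMIs. H2-Q10 in monocyte-like cells of the control library of day 5 rests on 2. Each library pools mice, so that variation between mice was not measured.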
